A study of Mus musculus with 19 samples.

Results

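The genes described here encode the proteasome, the barrel-shaped protease that degrades ubiquitin-tagged proteins, together with its activators and assembly factors. They are the 50 rows of the count table whose symbol begins with Psma to Psmg followed by a digit, out of 24537 genes in all. Of these, 5 are the inducible genes Psmb8, Psmb9, Psmb10, Psme1 and Psme2, and 45 are the constitutive and regulatory members. The 45 include Psmc3ip and Psme2b, which match the naming rule but encode no subunit: Psmc3ip serves meiotic recombination, and Psme2b is a copy of Psme2. Psmb11, the catalytic subunit of cortical thymic epithelium, had 0 counts in all 19 libraries, where 3 counts were taken as the floor of detection, and was not tested. The other 49 members passed the filter on low counts.

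Poly(A) RNA was sequenced from hepatocytes, the parenchymal cells of the liver, released by a perfusion of the liver in 2 steps. All mice were wild-type (WT) C57BL/6J males. The young group was labelled 5 months old (n = 10) and the old group 24 months old (n = 9), with 1 library per mouse. Mice were culled on 2 days, the first holding 5 young and 5 old mice and the second 5 young and 4 old mice, so each day held both ages. Mice are named by their library number. The preparations are bulk RNA, so fewer cells of a type and less RNA per cell cannot be told apart.

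The core of the proteasome, the 20S particle, is a stack of rings of alpha subunits (Psma genes) and beta subunits (Psmb genes), and the proteolytic sites lie on Psmb5, Psmb6 and Psmb7. Interferon induces 3 alternative catalytic subunits, Psmb8, Psmb9 and Psmb10, which take the places of Psmb5, Psmb6 and Psmb7 in newly built particles. The resulting immunoproteasome cuts proteins into peptides well suited to MHC class I presentation. The 19S cap recognises ubiquitin chains and unfolds substrates with its ATPases (Psmc genes) and non-ATPase subunits (Psmd genes). Other caps open the core without ubiquitin recognition: PA28 alpha and beta (Psme1, Psme2), PA28 gamma (Psme3) and PA200 (Psme4).

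The upstream sequences of 2 inducible catalytic genes and of the standard genes for the same positions are shown. The RNA ratio within each pair is the main comparison of inducible with standard subunits. The make-up of the particles was not measured. Each run is the 250 bases before the RefSeq start on build GRCm38.p6, the genome also named mm10, written 5′ to 3′ on the gene's own strand. In Psmb8 the capitals mark a match to TTCNNNGAA, the core of a STAT site, and in Psmb5 and Psmb6 a match to TGACNNNGC, the core of an antioxidant response element. In Psmb9 the capitals mark the 225 bases that lie between its start and the start of Tap1, the peptide transporter gene on the other strand.
Psmb8 (chr17:34197945-34198194, plus strand): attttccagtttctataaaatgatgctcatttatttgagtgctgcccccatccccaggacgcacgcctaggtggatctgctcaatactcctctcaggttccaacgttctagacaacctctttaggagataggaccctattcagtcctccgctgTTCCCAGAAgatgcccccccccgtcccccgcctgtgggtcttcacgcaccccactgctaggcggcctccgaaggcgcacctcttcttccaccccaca
Psmb5 (chr14:54617996-54618245, minus strand): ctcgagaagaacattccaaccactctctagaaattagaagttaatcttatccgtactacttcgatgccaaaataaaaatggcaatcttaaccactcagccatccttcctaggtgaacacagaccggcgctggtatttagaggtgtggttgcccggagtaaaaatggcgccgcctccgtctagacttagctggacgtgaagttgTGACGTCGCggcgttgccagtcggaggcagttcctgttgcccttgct
Psmb9 (chr17:34187331-34187580, minus strand): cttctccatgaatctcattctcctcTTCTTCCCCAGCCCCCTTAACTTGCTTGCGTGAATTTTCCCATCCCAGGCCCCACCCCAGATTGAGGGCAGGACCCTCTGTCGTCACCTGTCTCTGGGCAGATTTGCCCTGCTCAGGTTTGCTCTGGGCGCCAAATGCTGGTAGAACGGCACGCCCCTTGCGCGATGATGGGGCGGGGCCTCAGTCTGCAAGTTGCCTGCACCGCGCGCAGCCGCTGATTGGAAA
Psmb6 (chr11:70525107-70525356, plus strand): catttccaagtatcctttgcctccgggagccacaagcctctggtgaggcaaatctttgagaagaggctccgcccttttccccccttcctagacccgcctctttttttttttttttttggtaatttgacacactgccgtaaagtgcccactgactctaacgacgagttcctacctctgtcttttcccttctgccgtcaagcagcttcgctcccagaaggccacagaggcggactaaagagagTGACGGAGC
Psmb9, Tap1 and Psmb8 are neighbours on chromosome 17. The starts of Psmb9 and Tap1 are 226 bases apart on opposite strands, and Psmb8 starts 970 bases beyond the end of Tap1.

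A window of 300 bases, 250 before and 50 after the start, was found for 42 of the 50 members and for 17564 of the 24537 genes of the table. Both strands were searched for 4 motifs. TGACNNNGC was present in 6 member windows (14.3%) and in 13.2% of all windows. The core of an interferon-stimulated response element, GAAA followed by any 2 bases and GAAA again, was present in 5 member windows (11.9%) and in 3.46% of all windows, and Psme1 was the only one of the 5 inducible genes among them. TTCNNNGAA was present in 3 member windows (7.14%) against 8.06% of all, and Psmb8 was the only inducible gene among them. CCAAT, a general promoter element, was present in 14 member windows (33.3%) against 38.7% of all. Among the members lower in old mice that had a window, 4 of 18 (22.2%) held TGACNNNGC: Psmc6, Psmd12, Psmd9 and Psme4. Members tested and not called held it in 2 of 19 windows (10.5%). In the 18 windows the core of the interferon-stimulated response element was present in 2 (11.1%), TTCNNNGAA in 1 (5.56%) and CCAAT in 5 (27.8%). A match describes these letters only, and overlaps between motifs were not removed.

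Libraries held between 17381307 and 20287481 counts over genes, and the albumin gene Alb took 5.82% to 15.4% of them. The hepatocyte marker list had 2 of its 11 tested genes higher and 4 lower in old mice. Markers of other cells moved with age. All 12 tested macrophage and Kupffer cell genes, all 9 stellate genes, 8 of 12 endothelial genes, both tested B cell genes and the 1 tested neutrophil gene were higher in old mice, against 16.3% of all tested genes. The summed macrophage level ran from 100 to 486 CPM (counts relative to library totals after TMM scaling) in young mice and from 67.9 to 3303 CPM in old mice, where old mouse 1187 was the highest and the next was at 807 CPM. The summed stellate level ran from 35.9 to 99.7 CPM in young and from 89.3 to 340 CPM in old mice, and the endothelial level from 177 to 325 and from 182 to 588 CPM. The B cell list, of which most came from Cd74, ran from 13.8 to 37.7 CPM in young and from 11.6 to 1107 CPM in old mice. Ms4a1, which defines B cells, was at 0 in 7 of 10 young libraries and in 0 of 9 old libraries. Of the T and NK cell list, 1 gene was tested and was not called, and its summed level ran from 0.936 to 3.15 CPM in young and from 1.15 to 34.3 CPM in old mice, with 1187 the highest. The neutrophil list ran from 0.110 to 4.62 and from 0.831 to 14.8 CPM, with Ly6g at 0 in 18 of 19 libraries, and neither of the 2 tested cholangiocyte genes was called, at summed levels of 5.44 to 170 and 7.96 to 63.5 CPM. An other-cell score, which averages log2 CPM over the 39 markers tested out of these 60 of non-hepatocyte cells, ran from 2.22 to 3.75 in young and from 2.36 to 5.68 in old mice. Young mice 1184, 1186 and 1188 were set apart by earlier results of these data and had the 3 lowest Alb shares.

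The inducible genes Psmb8, Psmb9, Psmb10 and Psme1 rose in old mice, and 19 constitutive or regulatory members fell, most of them in the 19S cap. With the other-cell score as a further covariate, 0 members were called higher and 10 lower, and Psmb8 went from 0.72 to 0.20 on the log2 scale. In the fit over all 12269 tested genes (edgeR's quasi-likelihood test with cull day as covariate, Benjamini-Hochberg adjusted p under 0.05), 16.3% of genes were called higher and 14.5% lower in old mice. Of the 5 inducible genes, 4 were called higher and all 5 fold changes were positive, with a median log2 fold change of 0.45. Of the 44 other tested members, 0 were called higher and 19 lower, and 40 had a negative fold change, with a median of -0.16. Over all tested genes the median was -0.003 and 50.4% of fold changes were negative. In all, 4 members were higher, 19 lower and 26 not called, so 23 of 49 were called in either direction, against 30.9% of all tested genes. The summed level of the constitutive and regulatory members was 3268 ± 253 CPM over the young group (SD, n = 10) and 2852 ± 177 CPM over the old group (SD, n = 9). Scaling by library totals alone left 11 lower members, where 9.53% of all tested genes were lower, and the same count of 4 higher, where 17.1% were higher. Under that scaling 64.2% of all calls over the table were higher in old, against 53.0% with the main scaling.

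**Figure D1:**
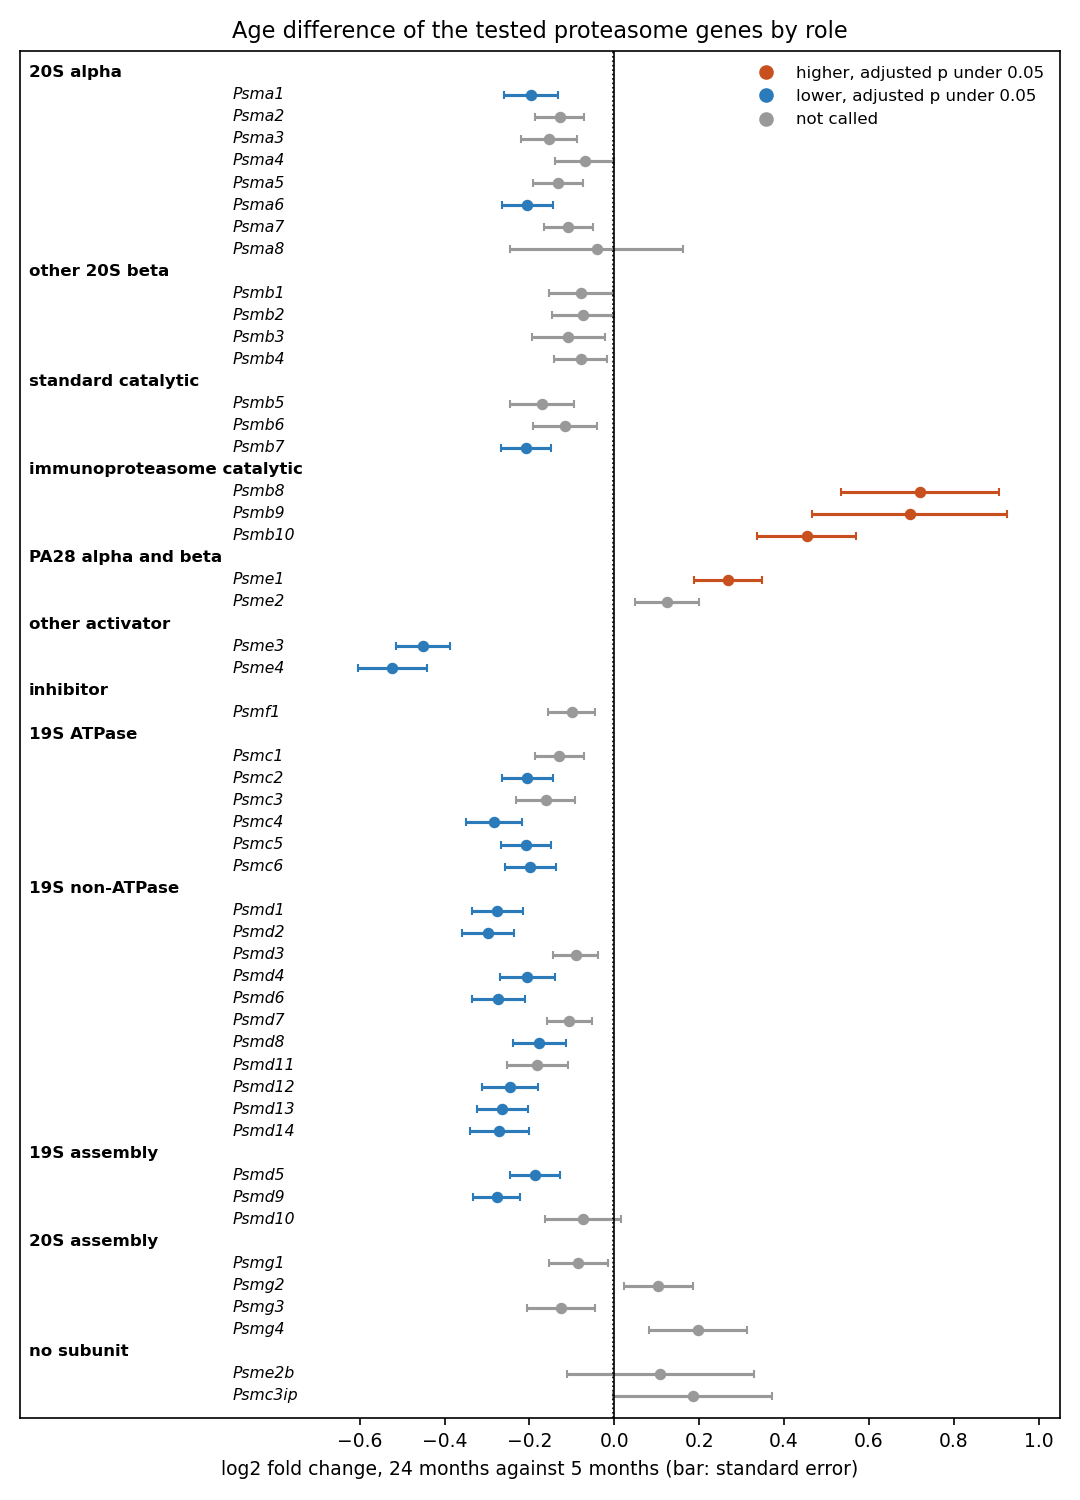
Log2 fold change of old against young mice (x axis, bars are standard errors) for the 49 tested proteasome genes, grouped by role, with orange for higher, blue for lower and grey for not called; the dotted line is the median of all tested genes. The 3 immunoproteasome catalytic genes lie to the right at 0.45 to 0.72, and all 17 19S subunits lie to the left of 0.

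Psmb8, the inducible subunit that replaces Psmb5, gave 14.5 CPM in the lowest, 23.8 in the median and 34.7 in the highest young mouse, and 27.1, 33.3 and 82.2 CPM in old mice. The groups overlapped, with 4 of 9 old mice above every young mouse, while the lowest old mouse stood above the young median. The log2 fold change was 0.72 (SE 0.19), an increase of 64.8% (edgeR adjusted p = 0.00795). Psmb9, which replaces Psmb6, ran from 6.42 through a median of 8.98 to 11.3 CPM in young mice, and from 7.14 through 10.6 to 32.8 CPM in old mice. Its ranges overlapped more: 4 old mice lay above all young mice and 2 lay below the young median. Its log2 fold change was 0.70 (SE 0.23, edgeR adjusted p = 0.0277). Without old mouse 1187 the Psmb9 value was 0.44 (edgeR adjusted p = 0.0593), and without old mouse 1240 it was 0.62 (edgeR adjusted p = 0.0610), neither of which passed.

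Psmb10, the inducible counterpart of Psmb7, ran from 16.6 through a median of 21.0 to 24.0 CPM in young mice and from 22.2 through 26.2 to 48.9 CPM in old mice. The separation was the clearest of the 3 by count of mice, with 7 of 9 old mice above every young mouse. The log2 fold change was 0.45 (SE 0.12, edgeR adjusted p = 0.00786), and it was 0.33 (edgeR adjusted p = 0.00512) without old mouse 1187. No member had every old library above every young library, a pattern seen in 0.994% of tested genes. Old mouse 1187 had the highest level of each of the 3 genes, and it also had the highest other-cell score. Old mouse 1183 had the lowest other-cell score of the old group, 2.36, which lies within the young range. It gave 27.1 CPM of Psmb8, 8.57 CPM of Psmb9 and 25.5 CPM of Psmb10, so its Psmb10 was above every young mouse, its Psmb8 was within the upper part of the young range and its Psmb9 was below the young median. The summed level of the 3 genes was 53.4 ± 8.40 CPM over the young group (SD, n = 10) and 82.4 ± 32.1 CPM over the old group (SD, n = 9).

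**Figure D2:**
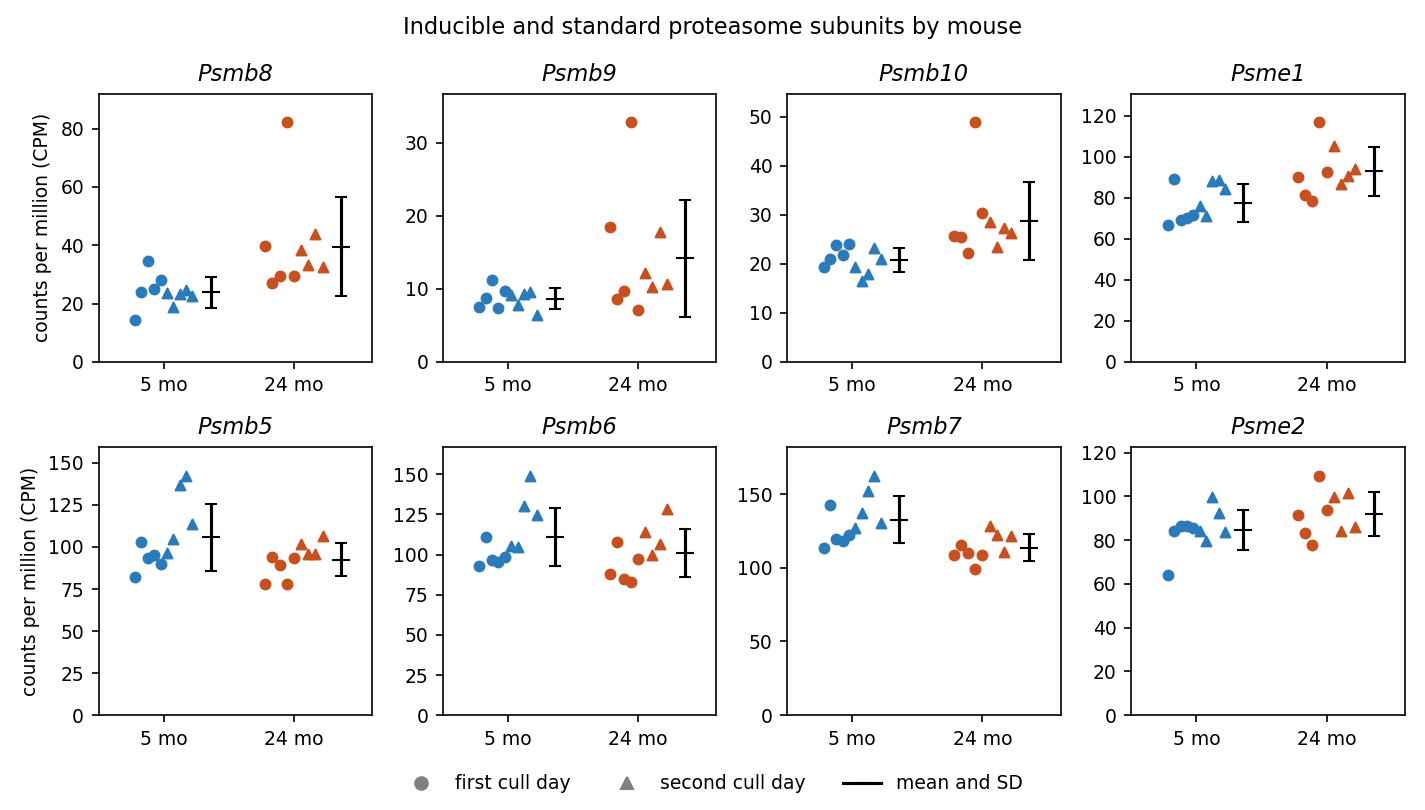
CPM per mouse (y axes from 0) for the inducible genes Psmb8, Psmb9, Psmb10, Psme1 and Psme2 and the standard catalytic genes Psmb5, Psmb6 and Psmb7 at 5 months (blue, n = 10) and 24 months (orange, n = 9); circles are the first and triangles the second cull day, and the black marks give mean and SD. One old mouse of the first cull day stands above the rest for Psmb8 (82.2 CPM), Psmb9 (32.8 CPM) and Psmb10 (48.9 CPM), while the standard subunits overlap between ages.

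Psme1 and Psme2 encode the alpha and beta subunits of the PA28 ring, an interferon-inducible cap of the 20S core. Psme1 ran from 66.6 through a median of 73.8 to 89.0 CPM in young mice and from 78.3 through 90.4 to 117 CPM in old mice. No old mouse was below the young median, and 6 of 9 were above all young mice. Its log2 fold change was 0.27 (SE 0.08, edgeR adjusted p = 0.0165). Psme2 ran from 64.1 through 84.9 to 99.7 CPM in young mice and from 78.0 through 91.6 to 110 CPM in old mice. With 2 of 9 old mice above the young range and 3 below the young median, its log2 fold change of 0.12 (SE 0.08) did not pass (edgeR adjusted p = 0.217). Reads of Psme2 and its copy Psme2b may have been shared between them, so both values are uncertain. Psme2b was at 2.13 CPM in young and 2.11 CPM in old mice on average.

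Per kilobase of transcript, the inducible catalytic genes were expressed far below the standard ones at both ages. Psmb8 stood at 19.6 CPM per kilobase in young and 32.6 in old mice, against 122 and 107 for Psmb5. Psmb9 stood at 10.9 and 17.8 CPM per kilobase, against 108 and 98.3 for Psmb6. Psmb10 stood at 16.5 and 22.8 CPM per kilobase, against 138 and 119 for Psmb7. PA28 was of the order of the standard core: Psme1 stood at 80.4 and 96.3 and Psme2 at 95.8 and 104 CPM per kilobase.

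The standard catalytic subunits did not rise with their counterparts. Psmb5, which carries the chymotrypsin-like site, ran from 82.4 through a median of 99.7 to 142 CPM in young and from 77.9 through 93.8 to 106 CPM in old mice. Psmb6, which carries the caspase-like site, ran from 93.1 through 105 to 149 CPM in young and from 82.7 through 99.4 to 128 CPM in old mice. The groups overlapped for both genes, and neither passed the test, with log2 fold changes of -0.17 for Psmb5 (edgeR adjusted p = 0.0913) and -0.12 for Psmb6 (edgeR adjusted p = 0.249). Psmb7, which carries the trypsin-like site, ran from 113 through 129 to 163 CPM in young and from 99.0 through 111 to 128 CPM in old mice, with all 9 old mice below the young median. It fell by 0.21 on the log2 scale (SE 0.06, edgeR adjusted p = 0.0139). Psmb5 shares 109 bases with the small RNA gene Mir686 on the same strand, so reads there could have been split.

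The ratio of the inducible to the standard gene within a library does not depend on how libraries are scaled. The log2 ratio of Psmb8 to Psmb5 counts was -2.15 ± 0.39 over the young group (SD, n = 10) and -1.30 ± 0.58 over the old group (SD, n = 9), where 4 old mice stood above all young mice and 8 young mice below all old mice. Averaged over cull days, the difference was 0.83 (exact two-sided permutation within cull days, p = 0.000661, adjusted p = 0.000992 over 3 ratios). For Psmb9 to Psmb6 the log2 ratio was -3.66 ± 0.32 in young and -2.97 ± 0.79 in old mice, which differed by 0.67 (raw and adjusted p = 0.0138, exact permutation), and 3 old mice topped the young range. For Psmb10 to Psmb7 it was -2.66 ± 0.26 in young and -2.02 ± 0.41 in old mice, which differed by 0.63 (exact permutation p = 3.15e-05, the smallest possible over 31752 relabellings, with 9.45e-05 after adjustment). There 8 of 9 old mice topped the young range. With the other-cell score as a further covariate none of the 3 passed: the differences were 0.28, 0.12 and 0.31 (permutation within cull days, adjusted p = 0.103, 0.639 and 0.0530).

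Expressed per transcript length, the inducible gene made up 14.1% ± 3.47 of the Psmb8 and Psmb5 level over the young group (SD, n = 10) and 23.1% ± 8.07 over the old group (SD, n = 9). For Psmb9 with Psmb6 the inducible share was 9.31% ± 1.89 in young and 15.2% ± 8.12 in old mice, and for Psmb10 with Psmb7 it was 10.8% ± 1.74 and 16.1% ± 4.43. The standard gene was the larger part of each pair in every library, the highest inducible share being 42.9% for Psmb8 in an old mouse. The next highest old mouse for Psmb8 was at 26.7%. On the second cull day alone the differences in log2 ratio were 0.94, 0.69 and 0.66 (exact permutation p = 0.00794, 0.0238 and 0.00794). On the first day alone they were 0.74, 0.66 and 0.60 (exact permutation p = 0.0873, 0.262 and 0.00794), where 0.00794 is the smallest p that 1 day allows.

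**Figure D3:**
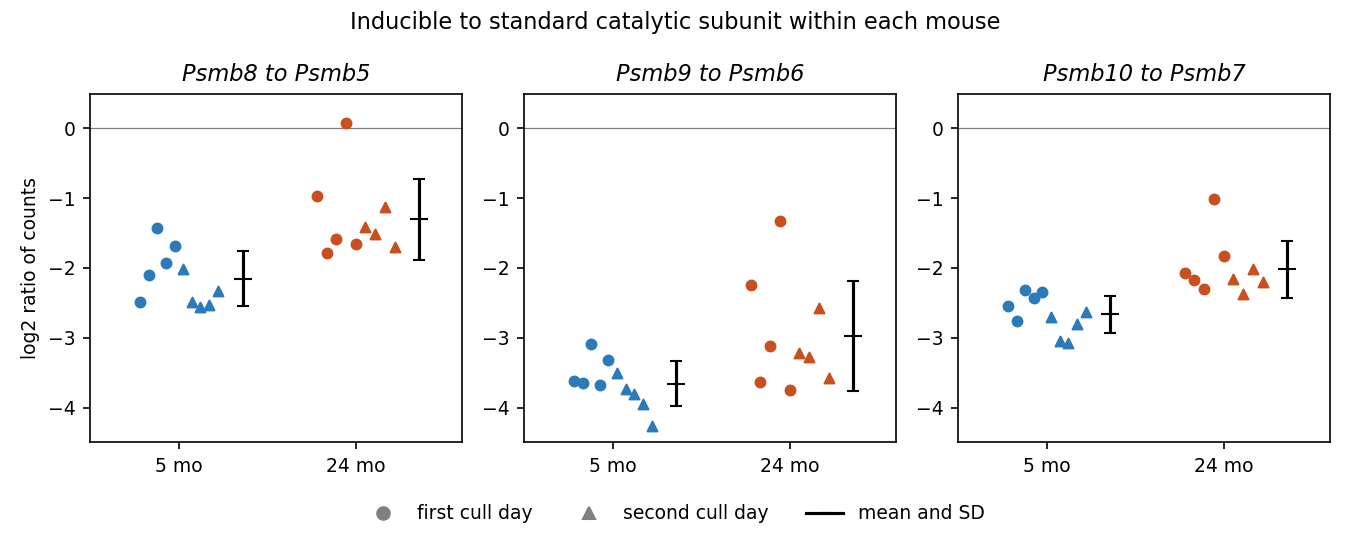
Log2 ratio of the counts of each inducible catalytic subunit to its standard counterpart (y axis) in each mouse at 5 months (blue) and 24 months (orange), with circles for the first and triangles for the second cull day and black marks for mean and SD. The old means lie above the young means in all 3 pairs (-1.30 against -2.15, -2.97 against -3.66 and -2.02 against -2.66).

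The remaining caps of the core fell, with the largest negative fold changes among the tested members. Psme3, the PA28 gamma subunit of a nuclear cap, ran from 55.0 through a median of 63.8 to 71.7 CPM in young and from 40.5 through 46.3 to 54.3 CPM in old mice. It was the only tested member whose old libraries all lay below all young libraries, a pattern seen in 0.734% of all tested genes. It fell by 26.8%, or by 0.45 on the log2 scale (SE 0.06, edgeR adjusted p = 0.000115). Psme4, the PA200 cap, ran from 92.1 through 118 to 141 CPM in young and from 64.1 through 83.8 to 98.8 CPM in old mice, with 8 of 9 old mice below all young mice. It fell by 30.4%, or by 0.52 on the log2 scale (SE 0.08, edgeR adjusted p = 0.000233). Old mouse 1187, the highest for the inducible subunits, was the lowest of all mice for Psme4 and stood mid-range among old mice for Psme3, at 46.5 CPM. Psmf1, an inhibitor of the 20S core, gave 20.3 ± 1.82 CPM in young and 19.1 ± 2.25 CPM in old mice and was not called.

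In the 19S cap, 12 of 17 subunits were lower in old mice, all 17 fold changes were negative and the median log2 fold change was -0.21, against a background of 14.5% of genes called lower. With the other-cell score as a further covariate, 6 of the 17 were lower, where 6.68% of genes were, and Psmc2, Psmc5, Psmc6, Psmd4, Psmd8 and Psmd12 lost their calls. The median of the 17 with the score was -0.20. Among the 6 with lost calls, Psmc2 stood at -0.20, Psmc5 at -0.21, Psmc6 at -0.19 and Psmd12 at -0.22 with the score, and Psmd4 and Psmd8 at -0.14. The summed 19S level was 1636 ± 102 CPM over the young group (SD, n = 10) and 1410 ± 88.5 CPM over the old group (SD, n = 9). Of the 6 ATPases that form the unfolding ring, Psmc2, Psmc4, Psmc5 and Psmc6 fell. Psmc4 ran from 67.9 through 76.0 to 89.9 CPM in young and from 56.3 through 62.8 to 73.4 CPM in old mice, with 7 old mice below the young range, and fell by 0.28 on the log2 scale (SE 0.07, edgeR adjusted p = 0.00441). The other 3 fell by 0.20 to 0.21. Psmc1, at -0.13, and Psmc3, at -0.16, did not pass (edgeR adjusted p = 0.0904 and 0.0850).

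Of the 11 non-ATPase subunits, 8 fell, where 14.5% of all tested genes were lower, and 5 were called with the other-cell score, where 6.68% were. Psmd2, a scaffold of the cap and the most abundant member in CPM, had a lowest value of 199.6, a median of 213 and a highest value of 237 CPM in young mice, and 151, 172 and 220.2 CPM in old mice. In 8 of 9 old mice it was below the young range, and it fell by 18.7%, or by 0.30 on the log2 scale (SE 0.06, edgeR adjusted p = 0.00207). Psmd1, the other large scaffold, ran from 121 through 137 to 144 CPM in young and from 93.9 through 113 to 128 CPM in old mice, also with 8 old mice below the young range, and fell by 0.28 (SE 0.06, edgeR adjusted p = 0.00287). Psmd1 overlaps 12934 bases of Htr2b on the opposite strand, but Htr2b was at 0.016 CPM. Psmd14, the deubiquitinase that removes ubiquitin chains from substrates, ran from 46.5 through 61.0 to 71.1 CPM in young and from 44.9 through 49.5 to 57.9 CPM in old mice. It overlapped with the young range in 8 of 9 old mice, though all 9 were below the young median, and it fell by 0.27 (SE 0.07, edgeR adjusted p = 0.00811). Psmd13 fell from a mean of 62.3 to 51.8 CPM (edgeR adjusted p = 0.00385), Psmd6 from 67.9 to 56.0 CPM (edgeR adjusted p = 0.00398) and Psmd12 from 85.8 to 72.2 CPM (edgeR adjusted p = 0.0103). Psmd4, a receptor for ubiquitin chains, fell by 0.21 (edgeR adjusted p = 0.0227), and Psmd8 fell by 0.18 (edgeR adjusted p = 0.0388), a call lost in 10 of 19 fits that each left out 1 mouse. Psmd3, Psmd7 and Psmd11, at -0.09, -0.11 and -0.18, were not called.

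Of 3 factors that help assemble the 19S base, 2 fell, where 14.5% of all tested genes were lower. Psmd9 ran from 30.3 through 34.5 to 40.7 CPM in young and from 24.1 through 28.5 to 32.0 CPM in old mice, with 7 old mice below the young range, and fell by 0.28 on the log2 scale (SE 0.06, edgeR adjusted p = 0.00184). Psmd5 fell by 0.19 (SE 0.06, edgeR adjusted p = 0.0233). With the other-cell score Psmd5 stood at -0.087 (edgeR adjusted p = 0.412) and lost its call. Psmd10, also known as gankyrin, was at 13.6 CPM in young and 12.9 CPM in old mice and was not called (edgeR adjusted p = 0.554).

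In the 20S core, all 15 standard subunits had negative fold changes, with a median of -0.12. Of the 15, 3 were called lower, where 14.5% of all tested genes were, and 0 were with the other-cell score as a further covariate, where Psma1 stood at -0.19, Psma6 at -0.17 and Psmb7 at -0.13. These were the alpha subunits Psma1 (a fall by 0.20, edgeR adjusted p = 0.0258) and Psma6 (a fall by 0.20, edgeR adjusted p = 0.0157) and the catalytic Psmb7. The Psma1 call was lost without old mouse 1238 (-0.16, edgeR adjusted p = 0.0577). Psma6 shares its span with the small RNA gene Mir1198, which was at 0.340 CPM. The 6 other tested alpha subunits ran from -0.04 for Psma8 to -0.15 for Psma3. Psma4 overlaps 96 bases of AY074887 on the opposite strand. The non-catalytic beta subunits Psmb1, Psmb2, Psmb3 and Psmb4 ran from -0.07 to -0.11 and none passed. Psma8, the alpha subunit of the testis, was the least abundant tested member per kilobase at 0.425 CPM in young mice. The summed 20S level was 1308 ± 171 CPM over the young group (SD, n = 10) and 1183 ± 97.6 CPM over the old group (SD, n = 9). Whether the 19S cap fell by more than the 20S core was not tested.

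The chaperones that build the 20S core were not called in either direction. Psmg1 and Psmg3 had log2 fold changes of -0.08 and -0.13, and Psmg2 and Psmg4 of 0.10 and 0.20. Psmg4, the least abundant of them at 4.13 CPM in young mice, was at or above the young median in all 9 old mice (edgeR adjusted p = 0.202). Psmc3ip, at 0.555 CPM in young and 0.618 CPM in old mice, was not called, and its 67 bases shared with Mlx on the other strand leave its count uncertain.

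**Figure D4:**
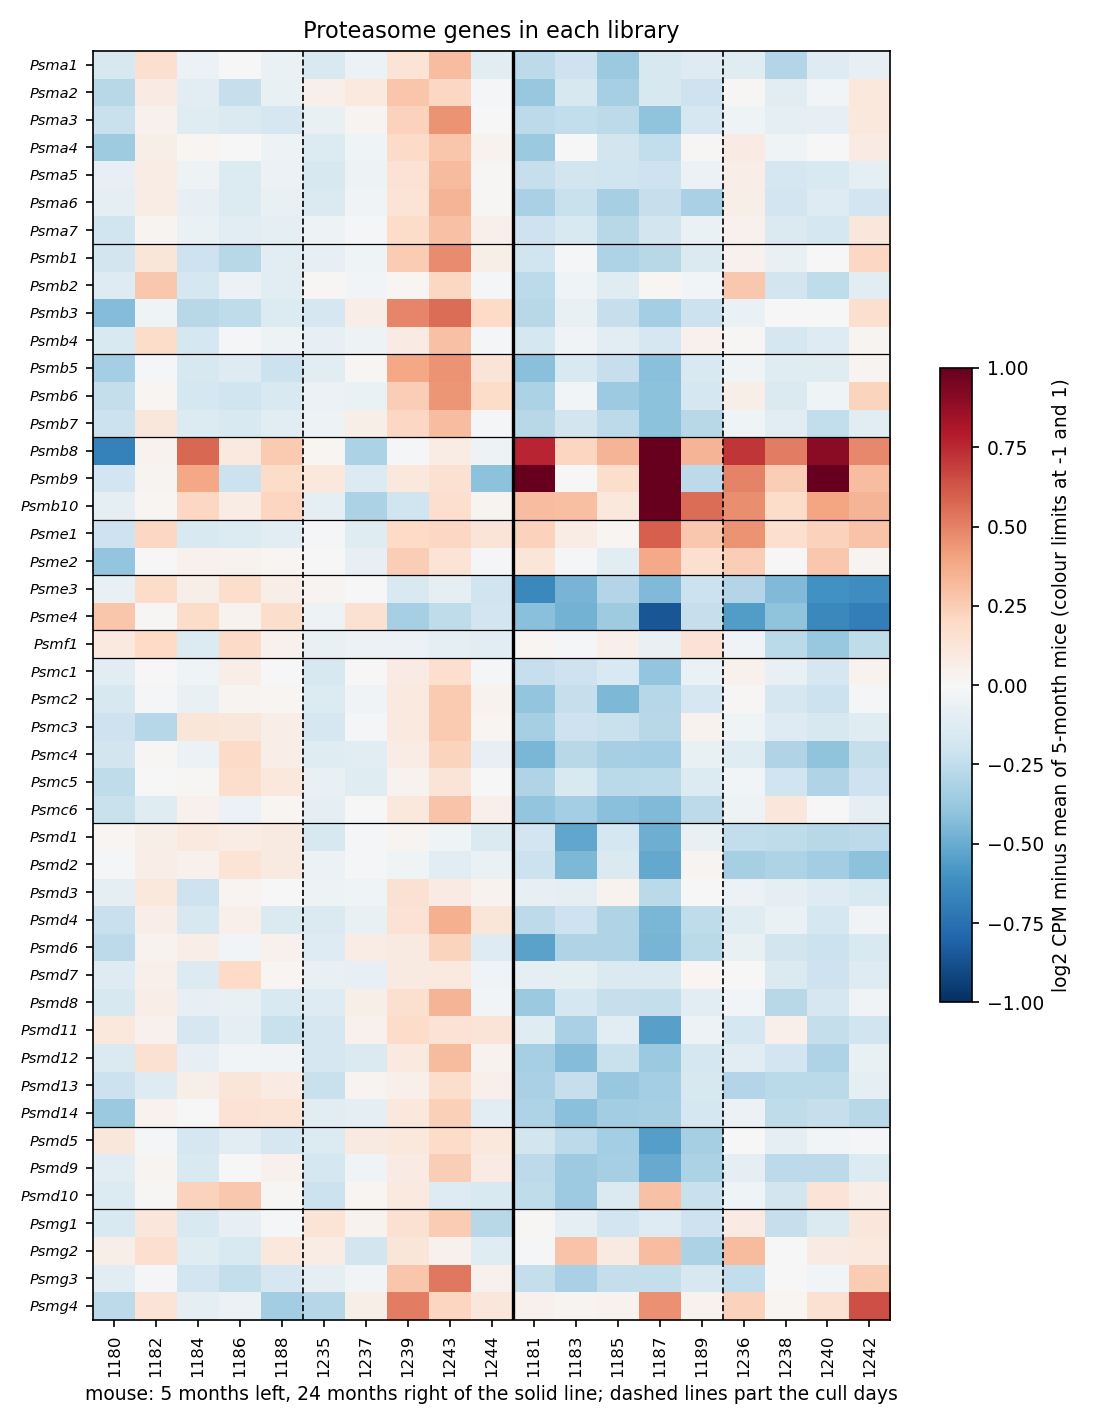
Log2 CPM of each tested member except Psma8, Psmc3ip and Psme2b, minus its mean over 5-month mice (colour, limited at -1 and 1), in every library. The 5-month mice lie left and the 24-month mice right of the solid line, with dashed lines between cull days and rows grouped by role. The rows of Psme3 and Psme4 are lower in the old columns, Psmb8 and Psmb10 are higher, Psmb9 is higher in most old columns but not in 1189 or 1183, mouse 1187 is the strongest for all 3, and the 19S rows are paler and lower in most old columns.

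After removal of age and cull day means, subunits of one particle varied together among the 19 libraries, which share scaling. These correlations are a description. Among the 20S standard subunits (Psma8 left out) the median Pearson r was 0.76, and 91 of 91 pairs were positive. Among the 19S subunits the median was 0.57, and between 20S and 19S it was 0.53. The 3 immunoproteasome catalytic genes had a median r of 0.81 among themselves, but of -0.004 with the 20S standard subunits. With PA28 alpha and beta their median was 0.66, and Psme1 and Psme2 had an r of 0.71 with each other. PA28 alpha and beta had a median r of 0.34 with the 20S standard subunits, with 28 of 28 pairs positive. Over all tested genes the median r was -0.005, with quartiles of -0.25 and 0.25. Without mice 1184, 1186, 1188 and 1187 the median among the immunoproteasome genes was 0.40, with the 20S subunits 0.24, and among the 20S subunits 0.81, and the median of PA28 was 0.61 with the immunoproteasome genes and 0.60 with the 20S subunits.

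The age differences had the same direction on both cull days for most members. All 5 inducible genes were positive on each day, and Psmb8 gave 0.72 on both. Of the constitutive and regulatory members tested on each day, 40 of 43 were negative on the first and 40 of 44 on the second. Each day alone gave fewer calls: on the first 0 members were higher and 2 lower, where 3.67% of genes were called in either direction, and on the second 3 were higher and 3 lower, where 19.3% were called. The interaction of age and cull day was called for 0 of 49 members and for 0 of 12269 genes by edgeR (0%). At an unadjusted p under 0.05 it was called for 0 members and 6.51% of genes, and DESeq2 called it for 20 genes, 0 of them members.

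With the other-cell score as a further covariate in the same fit, 0 of the 5 inducible genes were called higher, where 7.08% of genes were. The log2 fold changes became 0.20 for Psmb8 (edgeR adjusted p = 0.326), 0.12 for Psmb9 (edgeR adjusted p = 0.757), 0.18 for Psmb10 (edgeR adjusted p = 0.263), 0.17 for Psme1 (edgeR adjusted p = 0.238) and 0.01 for Psme2 (edgeR adjusted p = 0.938). The unadjusted permutation p of the 3 log2 ratios with the score, given above after adjustment, was 0.0685, 0.639 and 0.0177. Psme3 and Psme4 stayed near their values without the score. Psme3 was at -0.47 (edgeR adjusted p = 0.00117) and Psme4 at -0.44 (edgeR adjusted p = 0.00657), and 10 members were called lower, where 6.68% of genes were. Beside these they were Psmc4, Psmd1, Psmd2, Psmd6, Psmd9, Psmd13, Psmd14 and Psmd10, of which Psmd10 was at -0.29 (edgeR adjusted p = 0.0296) and had not been called without the score. No 20S subunit was called in that fit. The score did not bring all of its own markers level between ages. In that fit 7 of 12 macrophage and Kupffer genes and 1 of 12 endothelial genes were lower, where 6.68% of genes were. Of the 9 tested stellate genes 5 were higher, where 7.08% were. Without young mice 1184, 1186 and 1188, 2 members were higher, Psmb8 and Psmb10, where 14.6% of all tested genes were, and 13 lower, where 12.5% were, while Psmb9 at 0.72 and Psme1 at 0.22 no longer passed (edgeR adjusted p = 0.069 and 0.0963).

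**Figure D5:**
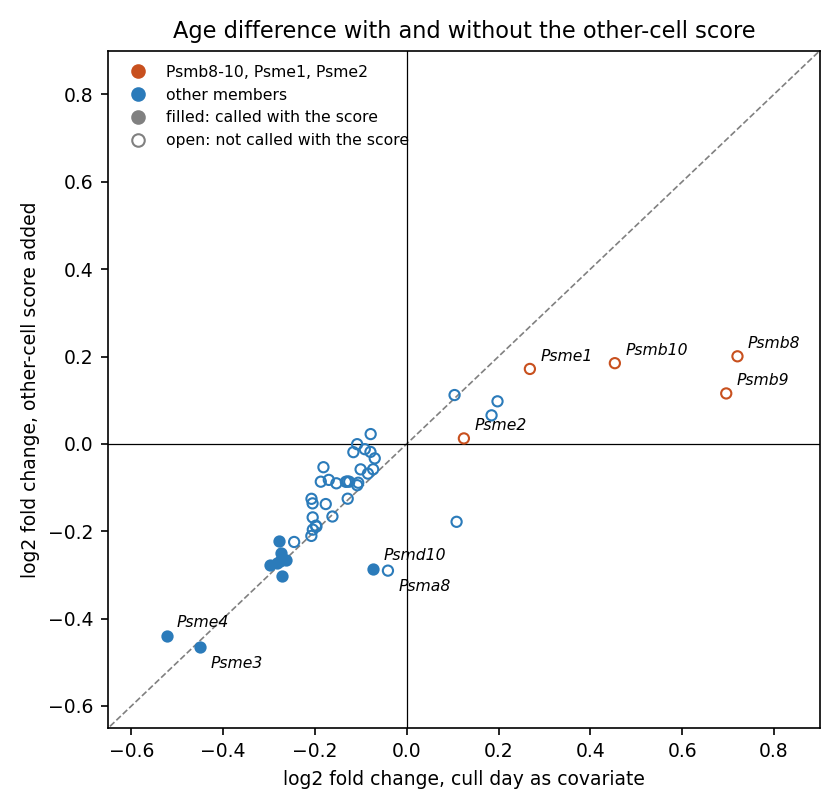
Log2 fold change of old against young for each tested member with cull day as covariate (x axis) and with the other-cell score added (y axis); orange marks the 5 inducible genes, blue the others, and filled points were called with the score. The inducible genes drop below the dashed line of equal values, Psmb8 from 0.72 to 0.20, while Psme3 and Psme4 stay near it.

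Other genes of the same pathways were counted from fixed lists. Of 22 tested partners of the proteasome, 0 were higher and 12 lower in old mice, where 16.3% of all tested genes were higher and 14.5% lower, with a median log2 fold change of -0.18. The shuttle factors Ubqln1 and Rad23b, which carry ubiquitinated proteins to the proteasome, fell by 0.38 and 0.42 (edgeR adjusted p = 0.000112 and 0.000205). Usp14, a deubiquitinase bound to the 19S cap, fell by 0.34 (edgeR adjusted p = 0.000278), and Nploc4, a cofactor of the Vcp segregase, by 0.32 (edgeR adjusted p = 0.00213). Nfe2l1, the transcription factor that raises proteasome genes when the protease is inhibited, had a log2 fold change of -0.05 (edgeR adjusted p = 0.662).

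Of 40 tested genes for ubiquitin supply and ligation, 0 were higher and 16 lower, against the same 16.3% and 14.5% of all tested genes, with a median of -0.17. The ligase Ube3c fell by 0.35, the conjugating enzyme Ube2g1 by 0.27, the cullin scaffold Cul2 by 0.27 and the ligase Ube3a by 0.64 (edgeR adjusted p = 0.000303, 0.00108, 0.00152 and 0.00456). The ubiquitin genes Ubb and Rps27a, at 0.11 and 0.06, were not called. With the other-cell score, 3 of the 22 partners and 4 of the 40 ubiquitin genes were lower, where 6.68% of all tested genes were, and 0 of the partners and 1 of the ubiquitin genes were higher, where 7.08% were. That gene, named after its value was seen, was the ligase Stub1, at 0.24 (edgeR adjusted p = 0.0410).

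Of 10 tested genes for control of the immunoproteasome and for peptide supply to MHC class I, 5 were higher and 0 lower, against 16.3% and 14.5% of all tested genes, with a median of 0.54. Tapbp, the tapasin that bridges the peptide transporter to MHC class I, rose by 0.59 (edgeR adjusted p = 0.00119), the transporter subunit Tap2 by 0.62 (edgeR adjusted p = 0.00220), the class I transactivator Nlrc5 by 0.64 (edgeR adjusted p = 0.00345) and Tapbpl, a relative of tapasin, by 0.35 (edgeR adjusted p = 0.0121). Tap1, the gene that faces Psmb9 across the 225 bases shown above and was picked for that position, rose by 0.75 (edgeR adjusted p = 0.0236). The transcription factor Irf1, at 0.49, did not pass (edgeR adjusted p = 0.0633). With the other-cell score 1 of the 10, Tapbp, was higher, at 0.29 (edgeR adjusted p = 0.0478), where 7.08% of all tested genes were.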

How the data were processed

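RNA was measured in 19 hepatocyte libraries, 1 per mouse. The authors deposited 1 table of estimated counts per gene. Per the file headers, HOMER's analyzeRepeats.pl counted reads in exons on mm10, with transcripts condensed to genes and counts left raw. The submitters' processing notes name STAR and HOMER. Per the labels' protocols, RNA was taken up in Trizol and chloroform and libraries were stranded and paired-end. The strand setting of the counting, the handling of reads with several matches and software versions are not given in the sources used here, so overlapping or near-identical genes are uncertain. The counts were multiples of 0.5, with 29.2% of cells not whole, and were rounded to whole counts. The tests had been set for plain counts and were kept.

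Ages were compared with edgeR 4.0.16 in R 4.3.3: the quasi-likelihood test, trimmed mean of M-values (TMM) scaling, filterByExpr by age (minimum count 10), cull day as covariate, and Benjamini-Hochberg adjustment over all 12269 tested genes at 0.05. CPM used the TMM-scaled totals. Each standard error is |log2 fold change| over the root of the F statistic. Levels per kilobase used the transcript length in the table. Ratios used a prior count of 2 and an exact permutation test within cull days. With the covariate, 100000 permutations of residuals were drawn. Totals were 18575100 ± 679515 counts over the young group (SD, n = 10) and 19548800 ± 620312 over the old group (SD, n = 9), and a gene needed 3 counts to stand above the floor. Samples were grouped by labelled age, and each mouse is a separate replicate.

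The members and lists were chosen with earlier results of these data known. Values by mouse were given for Psmb5 to Psmb10, Psme1 and Psme2, by group for at most the 10 smallest p in each direction, and at most the 4 smallest p per pathway list were named. Other genes were named to account for all members, or for position or role after their values were seen. Some genes of the lists are counted but not reported by name here. Coordinates and promoter windows are RefSeq's on GRCm38.p6. Alternatives were the DESeq2 size factors, library totals, no filter, DESeq2 1.42.0, limma-voom (limma 3.58.1) with sample weights, age without cull day, each day alone, the other-cell score, other prior counts, and leaving out mice. The scripts were tested on simulated data. Ratios and figures came from Python 3.11.15 (scipy 1.17.1, numpy 2.4.6, matplotlib 3.10.9, pandas 2.3.3).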

Additional observations from a re-analysis of the deposited data

Results flagged for a closer look

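Over 58 groups of old or young values of a gene or ratio, the highest or lowest mouse stood far from the rest in 6. Chance gives about 1 in 20 for separate groups. These groups share the same mice, and the ratios reuse the counts of single genes, so the 6 cannot be set against that rate. Of the 6, 5 were old mouse 1187. Its Psmb8 level was 82.2 CPM, against 43.8 CPM in the next old mouse. Its Psmb9 level was 32.8 CPM, against 18.5 CPM. Its Psmb10 level was 48.9 CPM, against 30.4 CPM. Its log2 ratio of Psmb8 to Psmb5 was 0.074, against -0.97 in the next old mouse, and that of Psmb10 to Psmb7 was -1.02, against -1.83. This mouse also had the highest other-cell score, 5.68, and the highest summed macrophage level, 3303 CPM. Their part in its proteasome values was not tested. The sixth was Psma6 in old mouse 1236, at 95.1 CPM against 83.8 CPM in the next old mouse.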

How the results depend on the processing

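No paired analysis was possible because the library numbers are not shared between ages. DESeq2 size factors, no filter, DESeq2, limma-voom and no cull day term gave 4 higher members each (of all tested genes 15.9%, 13.3%, 16.3%, 16.9% and 15% were higher) and 19, 19, 24, 20 and 16 lower members (15.7%, 11.6%, 17.2%, 15.7% and 11.5%). Over the whole table the first cull day alone gave 450 calls, the second 2389 and the other-cell score 1688, against 3785. Members called higher were 0 on the first day and 0 with the score, where 1.88% and 7.08% of all tested genes were. Without young mice 1184, 1186 and 1188 there were 2, where 14.6% were. Members called lower were 11 with library totals and 2 on the first day, where 9.53% and 1.79% of all tested genes were. There were 3 on the second day and 10 with the score, where 7.15% and 6.68% were. Leaving out each mouse gave 3014 to 3949 calls over the table and 0 interaction calls. It gave 3 to 4 higher members, where 12.4% to 16.9% of all tested genes were higher. It gave 18 to 21 lower members, where 12.1% to 15.2% were lower. The lowest count of calls came without old mouse 1187, and the 3 higher members came without old mouse 1187 or 1240. The log2 ratio of Psmb8 to Psmb5 was 0.74 on the first day (exact permutation, adjusted p = 0.131), 0.28 with the score, and 0.68 to 0.92 without single mice. That of Psmb9 to Psmb6 was 0.66 (exact permutation, adjusted p = 0.262), 0.12 and 0.49 to 0.79, and that of Psmb10 to Psmb7 was 0.31 with the score and 0.52 to 0.68 without single mice. Signs that changed were all of members not called in the main fit, though Psmd10 was called lower with the score. Psma8 was at 0.015 with library totals and 0.15 on the second day, and between -0.17 and 0.048 without single mice, above 0 without old mouse 1181, 1183, 1189 or 1238. Psmb1 was at 0.022 with the score. Psmc3ip was at -0.035 on the second day. Psmd10 was at 0.072 on the second day and 0.019 without the 3 young mice. Psme2b was at -0.012 without a cull day term, -0.11 on the second day and -0.18 with the score, and between -0.0055 and 0.21 without single mice, below 0 without old mouse 1187. The cause was not tested. Psma8 and Psmc3ip lie under 1 CPM on average, with at most 24 counts in a library.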
